A study of Mus musculus with 17 samples.

Results

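The genes of the cytosolic ribosomal proteins were followed across 17 RNA-seq samples of mouse stem cells and somatic cells. A gene was taken if its symbol was Rpl, Rps or Rplp followed by a digit, without the Rps6k kinases and without symbols ending in -ps, which mark pseudogenes. Each gene was represented by the protein-coding RefSeq transcript (NM accession) with the highest mean FPKM over the samples. This gave 85 genes of 23891 gene symbols in the files, with 101 such transcripts among them. Of the 85, 33 carried an Rps symbol and 52 an Rpl or Rplp symbol. In the description below, 73 are autosomal core genes, 4 are core genes on the X chromosome and 7 are paralogs of a core gene. Rps19bp1 encodes a partner of a ribosomal protein and is no subunit. The autosomal core genes include both Rps27 and Rps27rt, which the files place at the same locus.

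Ribosomal proteins assemble with ribosomal RNA in the nucleolus into the small (Rps) and large (Rpl) subunits, and the Rplp proteins form the stalk of the large subunit that recruits translation factors. Most of their mRNAs begin with a run of pyrimidines, the 5′ terminal oligopyrimidine tract, through which growth signals by way of mTOR set their translation. In male germ cells the X chromosome is silenced during meiosis, and autosomal copies of X-linked ribosomal protein genes, such as Rpl10l and Rpl39l, are known for their expression in the testis.

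The study asked how spermatogonial stem and progenitor cells (SSCs) convert in culture, without added factors, into multipotent adult spermatogonial-derived stem cells (MASCs) that resemble embryonic stem cells (ESCs). There were 4 SSC lines (2 of strain Oct4-GFP, 1 of C57Bl/6J and 1 of 129mix), 6 MASC lines (2 each of Oct4-GFP, 129mix and Gt(ROSA26)Sor-lacZ) and 2 ESC lines (Oct4-GFP and 129mix). For comparison there were 2 induced pluripotent (iPS) lines of 129mix, made with 2 µg/ml doxycycline from tetO-4F2A x H3.3B-HA mouse embryonic fibroblasts (MEFs) of E13.5, 2 cultures of C57Bl/6J lineage-negative haematopoietic stem and progenitor cells (HSCs), and 1 sample of 129mix H3.3B-HA MEFs of E13.5. All lines but the HSCs and MEFs had MEF feeders. The pluripotent lines had ESC medium with serum replacement and leukaemia inhibitory factor. The SSCs had a medium with glucose, insulin, other hormones, low serum and the growth factors GDNF, basic FGF and EGF. The HSCs had E4ORF1-HUVEC endothelial feeders. Cell type and culture medium cannot be told apart between SSCs and MASCs. The labels do not tie lines to animals, so p-values measure the spread between these lines only. In bulk RNA, fewer cells of a type and less RNA per cell cannot be told apart.

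Levels are given in FPKM, fragments per length of transcript and per library size, with upper-quartile and GC normalization. They come from reads with a single place in the genome. Levels of different genes are per length but also depend on how much of each gene such reads can cover. Differences are given as log2 differences of log2(FPKM + 1), with the standard error (SE) of the limma fit. A gene was called at a Benjamini-Hochberg adjusted p under 0.05 over all 32661 transcripts. The files held no read counts. Coverage at 1 FPKM was 1.26 to 3.23 reads per base, and the median coverage of the 85 genes was 1179 to 6841 reads per base over the samples. Spermatogonial markers summed to 624 to 741 FPKM in SSC lines and 11.9 to 36.5 in MASC lines, and all 8 were at 1 FPKM or above in every SSC line. Pluripotency markers summed to 12.8 to 155 FPKM in SSC lines and 2831 to 4439 in MASC lines. Fibroblast markers ranged from 11.2 to 825 FPKM in SSC lines and from 23.1 to 960.0 in MASC lines, against 7297 in the MEF sample. The SSC.2 and SSC.4 libraries stood apart in having low levels of short transcripts and high levels of long ones.

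The chosen transcripts of the 85 genes took up 14.2 to 21.1% of the summed FPKM in SSC lines and 20.7 to 26.03% in MASC lines. Further transcripts of these genes were not counted, among them that with most of the Rps24 signal in SSC lines. The share was 20.7 and 24.9% in ESC lines, 23.97 and 27.3% in iPS lines, 15.6 and 19.7% in HSC cultures and 19.8% in MEFs. The median FPKM of the 73 autosomal core genes was 1231, 750.5, 1205 and 766 in the SSC lines. In the MASC lines it ran from 1509 over a median of 1697 to 1784. It was 1853 and 1581 in ESC lines, 2280.5 and 1930.3 in iPS lines, 1523 and 1028 in HSC cultures and 1203 in MEFs. SSC and MASC lines did not overlap in this median, iPS lines were the highest, and the lowest values were those of SSC.2 and SSC.4. Single genes departed from this order, as the map of all 85 genes shows.

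**Figure D1:**
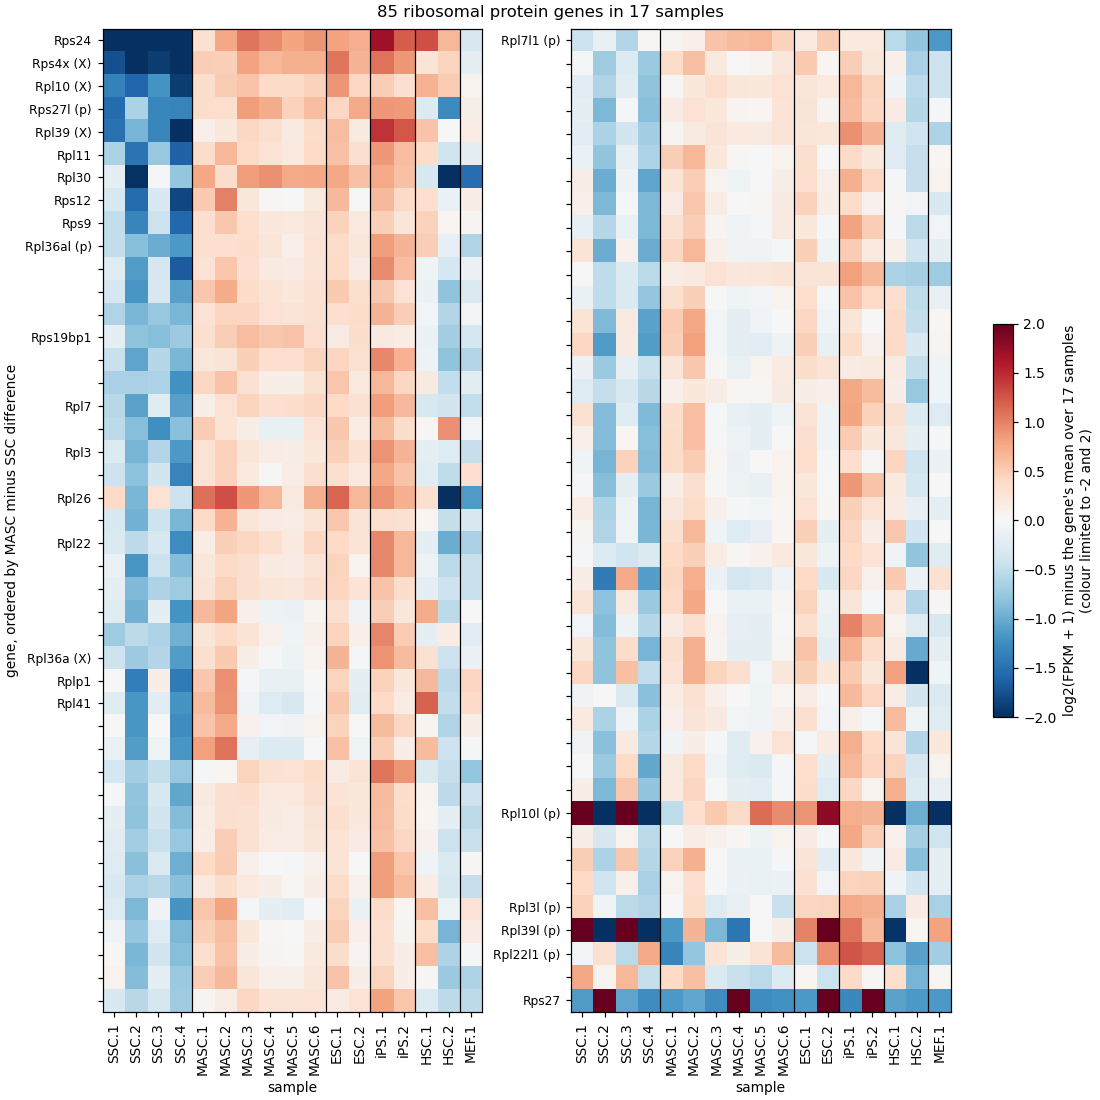
Each cell gives log2(FPKM + 1) of a gene in a sample minus that gene's mean over the 17 samples, with colours limited to -2 and 2, genes ordered by the difference between MASC and SSC lines from upper left to lower right, (X) for X-linked and (p) for paralogs, and labels on the genes of the naming rule only. The SSC columns are blue for most genes, most deeply in SSC.2 and SSC.4 and for Rps24, Rps4x and Rpl10, while Rpl10l and Rpl39l are red in SSC.1 and SSC.3.

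Ribosomal protein genes were higher in MASC than in SSC lines, on the scale as deposited. By limma with Benjamini-Hochberg adjustment, 50 of the 85 were higher and 0 lower, against 11.4% higher and 19.5% lower among all transcripts. Among other transcripts at 1 FPKM or more in every sample, 20.0% were higher and 27.0% lower. At an unadjusted p under 0.05, 60 of the 85 differed. The median log2 difference was 0.73, a 1.66-fold level, with a range from -0.42 to 3.51. With a log2 difference of at least 1 as a further condition, 18 were higher and 0 lower, against 6.04% and 9.6% of all transcripts. The groups of lines did not overlap for 47 genes, and 81 differences were above 0. For these counts and that at an unadjusted p, no share of all transcripts was computed, here or in later comparisons. Of the autosomal core genes, 42 of 73 were higher with a median of 0.68, as were 4 of 4 X-linked core genes with a median of 1.83 and 3 of 7 paralogs. By subunit, 21 of 33 Rps genes were higher with a median of 0.73, and 29 of 52 Rpl and Rplp genes with a median of 0.72.

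How many genes were called depended on the scaling of the libraries. After quantile normalization, which gives every library the same distribution of values, 18 of the 85 were higher and 11 lower, and the median difference was -0.02, with 40 differences above 0. Of the 50 genes higher as deposited, 18 remained higher, 29 were not called and 3 were lower. The other 8 lower genes were not called as deposited, among them Rps28 (log2 difference -1.25), Rpl35a (-0.57) and Rplp2 (-0.56). After each library was centred on its median, 62 were higher and 0 lower. The shares of all transcripts called on these scales, or in the further settings below, were not computed. Over transcripts at 1 FPKM or more in every sample, the median difference between MASC and SSC lines was -0.07 as deposited, 0.02 after quantile normalization and 0.08 after centring. Between ESC and SSC lines it was -0.11, 0.00 and 0.08, so that centring moved it by more than 0.1. The 10 genes that were most above 0 after quantile normalization were Rps24 (3.18), Rps4x (2.04), Rpl30 (1.52), Rps27l (1.30), Rps19bp1 (1.17), Rpl10 (1.16), Rpl39 (0.93), Rps12 (0.80), Rpl11 (0.75) and Rpl26 (0.67), of which Rpl26 did not pass the test there.

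**Figure D2:**
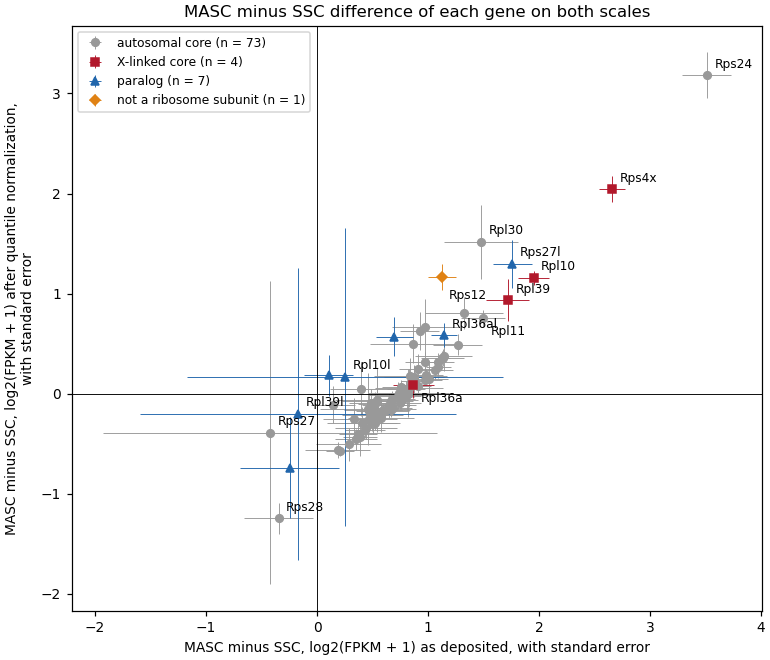
The MASC minus SSC difference of each of the 85 genes in log2(FPKM + 1) as deposited (horizontal) is plotted against the same difference after quantile normalization (vertical), with bars of 1 standard error. Most autosomal core genes (grey) sit to the right of 0 and around 0 on the vertical axis, whereas Rps24, Rps4x, Rpl30, Rps27l, Rpl10 and Rpl39 lie above 0 on both.

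Transcripts of other genes at 1 FPKM or more in every sample followed their length in the same libraries. Those of up to 700 bases (n = 384) had a median difference between MASC and SSC lines of 0.29, and 28.6% of them were higher. The median was lower in each longer class, at 0.15 over 700 and up to 1500 bases, -0.03 up to 3000, -0.22 up to 6000 and -0.40 above 6000 bases. The autosomal core genes had a median of 0.74 in the 37 genes of up to 700 bases and of 0.67 in the 36 longer ones. Their median deviation from the mean over all samples was -0.13, -0.85, -0.23 and -0.88 in SSC.1 to SSC.4, where other transcripts of up to 700 bases stood at -0.03, -0.28, -0.06 and -0.45. With a correction for transcript length, chosen after the data were seen, 50 genes were higher and 1 lower, with a median of 0.51. Without SSC.2 and SSC.4, 36 were higher and 2 lower and the median was 0.40. The part of library quality in the difference was not tested.

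**Figure D3:**
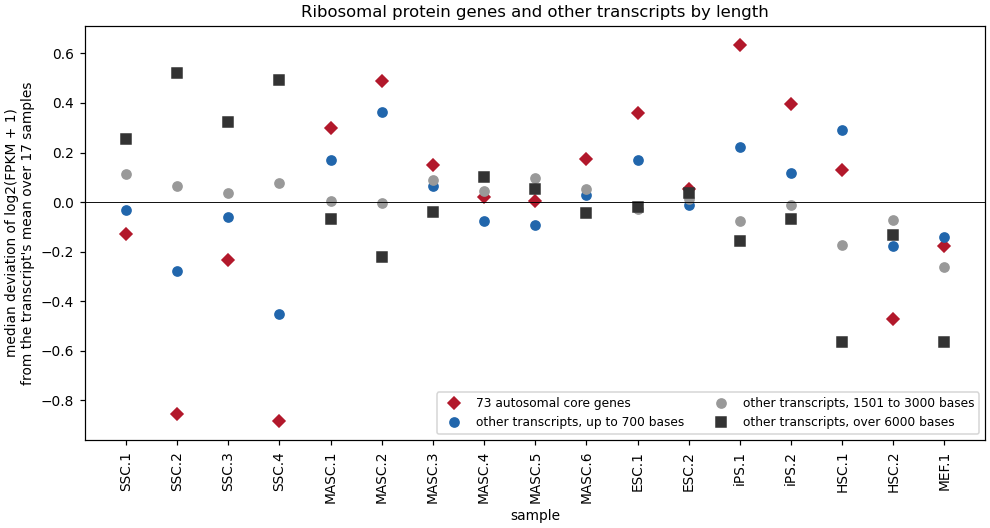
For each sample, the median deviation of log2(FPKM + 1) from a transcript's mean over 17 samples is plotted for the 73 autosomal core genes (red diamonds) and for other transcripts in 3 length classes. The core genes are at -0.85 and -0.88 in SSC.2 and SSC.4, below the short transcripts, while transcripts over 6000 bases are highest in these 2 libraries.

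The direction was the same within each strain that had both cell types. These strains draw on SSC.2 and SSC.4, the libraries low in short transcripts: SSC.2 is Oct4-GFP, and SSC.4 is the only SSC line of 129mix. Over all lines, the median without SSC.2 and SSC.4 was 0.40. In Oct4-GFP (2 SSC and 2 MASC lines) the median difference was 0.87 and 80 of the 85 differences were above 0, while the median of other transcripts was -0.15, and 0.46 for those of up to 700 bases. In 129mix (1 SSC and 2 MASC lines) the median was 1.00 with 84 above 0, against -0.08 for other transcripts and 0.42 for those of up to 700 bases. Without the lines of highest fibroblast markers (SSC.1, SSC.3, MASC.1 and ESC.1), a setting chosen after the data were seen that leaves SSC.2 and SSC.4 as the only SSC lines, 72 genes were higher and 0 lower, with a median of 1.04.

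Of the 4 X-linked core genes, Rps4x, Rpl10 and Rpl39 were lower in every SSC line than in every other sample, and Rpl36a was not. Rps4x encodes a small subunit protein (chrX:99380282-99383710, mm9). Its FPKM was 345, 261, 312 and 244 in the SSC lines, 1623 to 2039 with a median of 1879 in the MASC lines, 2449.9 and 1869 in ESC lines, 2486 and 2140.4 in iPS lines, 1395 and 1590.1 in HSC cultures and 1030.4 in MEFs. SSC lines were below every other sample, and the MASC minus SSC difference was 2.66 (SE 0.12), 6.31-fold (limma, Benjamini-Hochberg adjusted p = 5.4e-07).

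Rpl10, which encodes a large subunit protein that joins the subunit late in its assembly (chrX:71516155-71518474), stood at 515, 438, 578 and 355 FPKM in the SSC lines and at 1677 to 1963 with a median of 1772 in the MASC lines. The difference was 1.95 (SE 0.14), 3.87-fold (limma, Benjamini-Hochberg adjusted p = 7.12e-06). Rpl39, a small protein that lines the exit tunnel (chrX:34622515-34625179), had 567, 836, 644 and 379 FPKM in SSC lines and 1717 to 2116 with a median of 1922 in MASC lines. Its difference was 1.72 (SE 0.19), 3.29-fold. SSC lines were below all other samples for both genes, and iPS lines had the most Rpl39, at 4348 and 3766 FPKM. Rpl36a (chrX:131120193-131122601) changed least of the 4, from 851, 681, 749.9 and 523 FPKM in SSC lines to 1058 to 1632 in MASC lines, a difference of 0.87 (SE 0.19), and after quantile normalization its difference was 0.08 and did not pass the test.

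Within a library, the mean of the 4 X-linked genes minus the median of the autosomal core genes does not depend on the scaling between libraries. On the log2 scale this was -1.18, -0.57, -1.15 and -1.08 in SSC.1 to SSC.4. It was -0.09 to 0.11 in the MASC lines, 0.29 and 0.01 in ESC lines, 0.16 and 0.19 in iPS lines, 0.22 and 0.46 in HSC cultures and 0.08 in MEFs. All 4 SSC lines lay below all other samples. Other X-linked transcripts at 1 FPKM or more in every sample (n = 275) had a median MASC minus SSC difference of 0.14 with 30.2% higher, against -0.09 and 19.7% for those on other chromosomes (n = 9198). The 64 X-linked transcripts of up to 1500 bases had a median of 0.56 with 45.3% higher. Of the 4 X-linked core genes, Rps4x, Rpl10 and Rpl39 were each above 1.5 and Rpl36a was at 0.87. How many of the 64 transcripts reached such values was not counted.

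Rps24, a small subunit protein needed for the processing of the precursor of 18S ribosomal RNA, differed most of the 85, and the difference was one of transcripts. The files list 3 coding transcripts at chr14:25309903-25315368 (mm9), of 837, 857 and 875 bases. The 837-base transcript had 106, 58.4, 103 and 55.3 FPKM in SSC lines, 633 to 1076 with a median of 917 in MASC lines, 896 and 846 in ESC lines, 1657 and 1178 in iPS lines, 1248 and 807 in HSC cultures and 408 in MEFs. SSC lines were below every other sample, and the difference from MASC lines was 3.51 (SE 0.22), 11.4-fold (limma, Benjamini-Hochberg adjusted p = 3.67e-06).

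The 857-base transcript went the other way, with 1296, 1025, 1109 and 743 FPKM in SSC lines, 363 to 780.4 with a median of 474 in MASC lines, and 14.5 and 86.7 in HSC cultures (MASC minus SSC -1.03, SE 0.23, adjusted p = 0.00734). The 837-base transcript thus made up 7.44, 5.30, 8.38 and 6.75% of the Rps24 signal in SSC.1 to SSC.4, a mean of 6.97% ± 1.30 (SD), and 41.8 to 71.0% in the 6 MASC lines, a mean of 61.5% ± 10.9 (SD). The difference of 54.5 percentage points, tested after these values were seen, gave in a two-sided exact permutation test p = 0.00952, the smallest p that 4 against 6 lines allow. The share was 61.9 and 63.97% in ESC lines, 72.2 and 62.9% in iPS lines, 98.8 and 89.8% in HSC cultures and 39.0% in MEFs. The sum of the 3 transcripts moved much less, from 819.8 to 1425 FPKM in SSC lines to 1353 to 1534 in MASC lines, a log2 difference of 0.39 (two-sided exact permutation p = 0.0286, n = 4 and 6). MASC.1, which had the lowest share of the MASC lines, also had the highest fibroblast markers among them (960.0 FPKM). The part of the feeder cells in its share was not tested.

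The 857- and 837-base transcripts differ in length by 20 bases. In the annotation of mm9, the last listed exon of an Rps24 transcript starts at chr14:25314652. The 20 bases from that start (chr14:25314652-25314671) are shown, with their end set by the difference in length and not by the annotation. They are in capitals with 5 bases on each side, on the plus strand at chr14:25314647-25314676.
Rps24: ttcagTGAGTGGAGATTGGATACAGgtata
These 20 bases follow an AG, precede a GT and open with TGA. The annotated coding sequence is 393 bases long in the transcript with this exon start and 402 bases in the annotated 837-base transcript. The 20 bases were assigned to the 857-base transcript by length alone, since exon structures of the RefSeq transcripts were not used here.

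**Figure D4:**
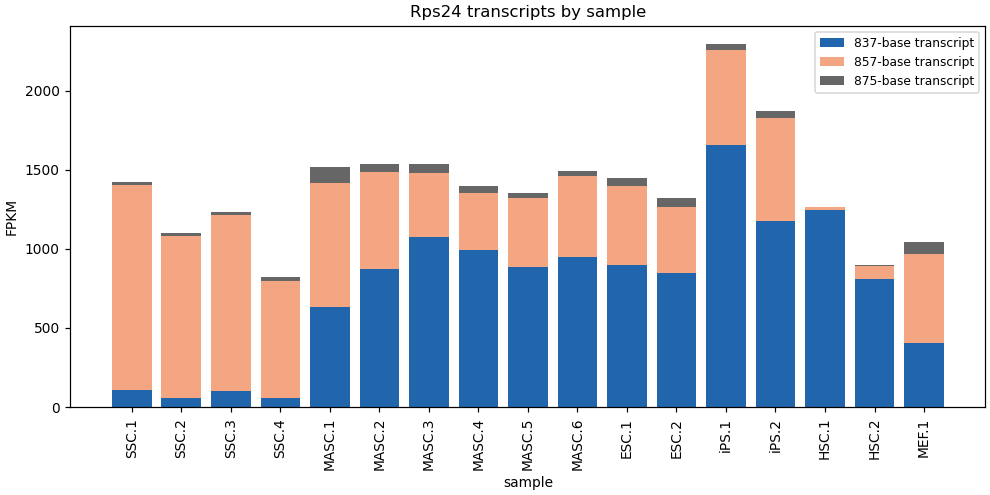
Stacked bars give the FPKM of the 3 Rps24 transcripts in each of the 17 samples, from 0. The 857-base transcript (light) fills most of the bar in the 4 SSC lines, the 837-base transcript (blue) is the largest part in 5 of 6 MASC lines and in ESC, iPS and HSC samples, and the total varies less than the parts.

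Among the other autosomal genes outside the paralog pairs, the largest differences between MASC and SSC lines were those of Rpl11, Rpl30, Rps12 and Rps9. Rpl11, which binds Mdm2 when ribosome assembly fails, had 1019, 567, 935 and 514 FPKM in SSC lines and 1807 to 2506 with a median of 2047 in MASC lines. The difference was 1.498 (SE 0.20), 2.83-fold (limma, Benjamini-Hochberg adjusted p = 0.000353), with no overlap. Rps9 had 1152, 649, 1205 and 547 FPKM in SSC lines and 1868 to 2357 in MASC lines, a difference of 1.27 (SE 0.22).

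Rps12, 1 of the 3 most abundant, had 2716, 1173, 2734 and 965 FPKM in SSC lines and 3401 to 6826 with a median of 3926 in MASC lines (difference 1.32, SE 0.35, adjusted p = 0.017). Without SSC.2 and SSC.4 this difference was 0.65 and did not pass (adjusted p = 0.146). Rpl30 was low for a core gene, with 36.6, 9.9, 41.4 and 24.1 FPKM in SSC lines and 53.8 to 79.7 in MASC lines (difference 1.47, SE 0.33). Its 2 coding transcripts, of 519 and 575 bases, shared its signal, and the 519-base form held a mean of 58.0% ± 13.8 (SD) of both in the 4 SSC lines, 60.2% ± 3.85 (SD) in the 6 MASC lines and 39.9% ± 19.8 (SD) in the 2 HSC cultures.

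The other most abundant genes did not pass the test. Rplp1, the stalk protein and the most abundant of the 85, had 4634, 1769, 5070.4 and 1734 FPKM in SSC lines and 4176 to 8737 with a median of 4621 in MASC lines (difference 0.86, SE 0.38, adjusted p = 0.122). Rpl41, whose product is the shortest of the ribosomal proteins, had 2835, 1482, 2896 and 1471 FPKM in SSC lines and 2660.4 to 6219.8 in MASC lines (0.84, SE 0.33, adjusted p = 0.0825). In both genes the SSC.1 and SSC.3 lines overlapped the MASC lines and the SSC.2 and SSC.4 lines did not. Rps28, next to them in mean FPKM, had 5839, 3616, 5418 and 2491 FPKM in SSC lines and 2362 to 5226 in MASC lines (-0.35, SE 0.31, adjusted p = 0.468), and after quantile normalization it was lower in MASC lines. Of the 3 stalk genes, Rplp0 was higher in MASC lines (0.67, SE 0.18), and Rplp1 and Rplp2 (0.19, SE 0.29) did not pass.

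Start sites bear on this group because ribosomal protein mRNAs are known for a pyrimidine tract at the cap. RefSeq start sites (GRCm38.p6) were at hand for 57 core genes and 7 paralogs, and an unbroken run of at least 8 C or T bases on the sense strand that covers the annotated start was searched for. Such a run was held by 17 of the 57 core genes (29.8%), by 0 of the 7 paralogs and by 1240 of all 27025 genes (4.59%). A match is a description of these letters, and a start annotated a few bases off would hide a run. The windows from 15 bases before to 15 bases from the start on are shown for the longest run, for Rps24 and Rps9 among the genes with large differences, and for a core gene with its paralog, each on its sense strand with the run that covers the start in capitals.
Rpl7a, chr2:26910792-26910821, plus strand: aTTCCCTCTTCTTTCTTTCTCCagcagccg
Rps24, chr14:24490663-24490692, plus strand: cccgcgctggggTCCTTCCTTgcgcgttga
Rps9, chr7:3704026-3704055, plus strand: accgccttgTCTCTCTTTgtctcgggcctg
Rps27, chr3:90213634-90213663, minus strand: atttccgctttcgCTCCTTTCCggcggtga
Rps27l, chr9:66946071-66946100, plus strand: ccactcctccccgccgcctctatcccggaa
The run was 21 bases long in Rpl7a and 9 bases in each of Rps24, Rps9 and Rps27. Rps27l has none at the annotated start. Rpl11, Rps12, Rps4x and Rpl10 have none at their annotated starts either, and in Rpl39 the run is 5 bases long.

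Paralogs were compared with their core gene inside each line, as the log2 ratio of both, for 8 pairs. Of these, 2 differed between MASC and SSC lines by a two-sided exact permutation test (p = 0.00952 each, the smallest that 4 against 6 lines allow, and 0.0381 after Benjamini-Hochberg adjustment over the 8 pairs). The first was Rps4l, an intronless copy of Rps4x (chr6:148303178-148304118, mm9), which the files list as noncoding and which is therefore none of the 85. Its FPKM was 460.3, 321, 457 and 316 in SSC lines and 398 to 734 with a median of 426 in MASC lines, 16.2 and 12.7 in HSC cultures and 75.7 in MEFs. In SSC lines the FPKM of Rps4l was above that of Rps4x, and in every other sample below it, with 95.8% of the coding stretches of Rps4x found elsewhere in the genome. The ratio to Rps4x fell by 2.31 on the log2 scale from SSC to MASC lines without overlap, while Rps4l itself did not pass the test (0.34, SE 0.23). The second was the ratio of Rpl3l, a form known from muscle, to Rpl3. Rpl3l was at 1.65 FPKM or less in every sample, and with a pseudocount of 0.1 its ratio did not pass (-0.42, exact p = 0.495).

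Rpl10l and Rpl39l, the autosomal copies known from the testis, split the SSC lines. Rpl10l had 151, 0.903, 144 and 0.158 FPKM in SSC.1 to SSC.4, 7.96 to 26.6 with a median of 16.5 in MASC lines, and 0.0976 in MEFs. Rpl39l had 129, 0.161, 76.9 and 0.0783 FPKM in the same SSC lines and 3.72 to 19.6 with a median of 8.86 in MASC lines. For both genes SSC.1 and SSC.3 were above, and SSC.2 and SSC.4 below, all MASC lines, so that the mean differences were small beside their errors (0.25, SE 1.42, and -0.17, SE 1.43). The split did not follow strain, since SSC.1 and SSC.2 were both Oct4-GFP. SSC.1 and SSC.3 also had more fibroblast markers (365 and 825 FPKM) than SSC.2 and SSC.4 (11.2 and 72.9), and MEFs had 0.0976 FPKM of Rpl10l and 21.3 of Rpl39l.

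**Figure D5:**
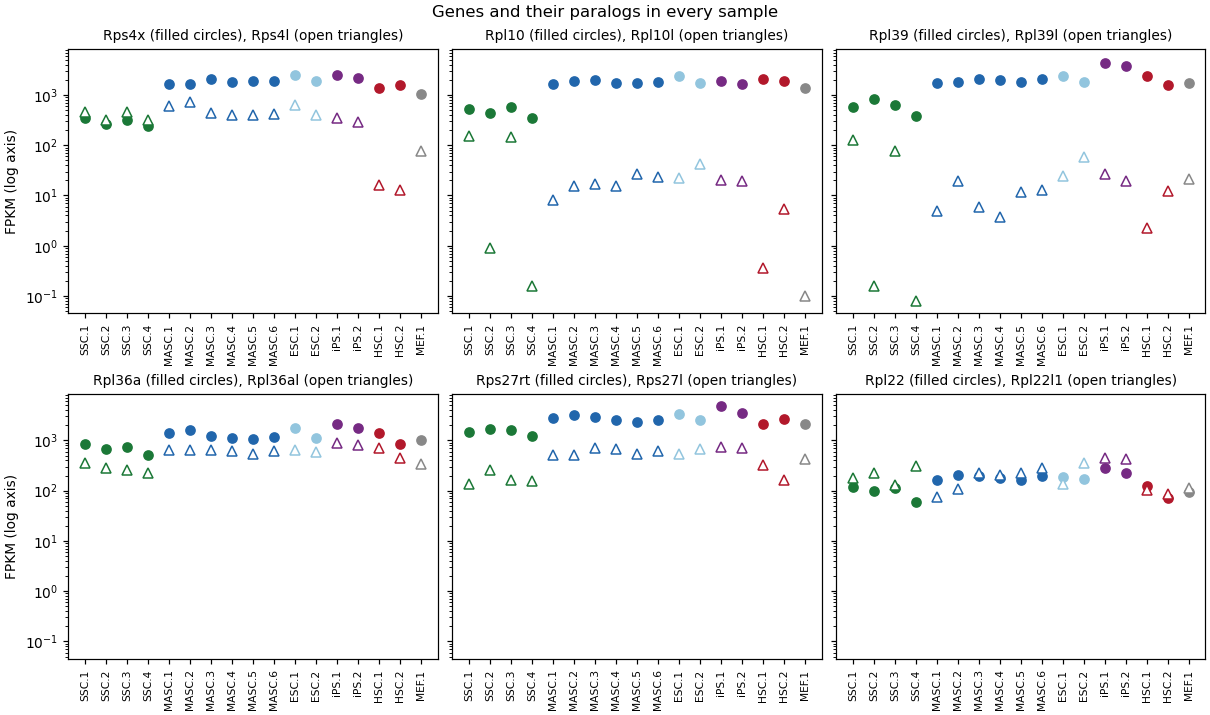
FPKM on a log axis is plotted for 6 core genes (filled circles) and a paralog of each (open triangles) in the 17 samples. Rps4x lies below Rps4l in the 4 SSC lines only, and Rpl10l and Rpl39l lie at 76.9 FPKM or above in SSC.1 and SSC.3 and below 1 FPKM in SSC.2 and SSC.4.

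Rps27l, a paralog of Rps27 that p53 is known to induce, had 136, 254.7, 160.5 and 156 FPKM in SSC lines, 503 to 709 with a median of 576 in MASC lines, 531 and 674 in ESC lines, 329.9 and 163 in HSC cultures and 429 in MEFs. MASC lines were all above the SSC lines, by 1.76 (SE 0.18), 3.39-fold (limma, Benjamini-Hochberg adjusted p = 6.74e-05). The files place Rps27 and Rps27rt at the same locus (chr3:90016589-90017570 for Rps27, mm9), and reads of the 2 cannot be told apart. RefSeq on GRCm38.p6 puts Rps27rt on chromosome 9, so which locus its values stand for was not settled here. Rps27rt took most of them, with 1481, 1679, 1578 and 1239 FPKM in SSC lines and 2282 to 3154 in MASC lines, while Rps27 was under 1 FPKM in 13 samples and at 32.4 in SSC.2, 34.0 in MASC.4, 44.0 in ESC.2 and 29.1 in iPS.2. Against the sum of both, the log2 ratio of Rps27l was -3.43 to -2.74 in SSC lines and -2.65 to -1.97 in MASC lines, a difference of 0.89 (exact permutation p = 0.00952, a setting chosen after the data were seen).

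Rpl36al, an autosomal copy of the X-linked Rpl36a, rose with its partner, from 362, 282, 255.7 and 227 FPKM in SSC lines to 542 to 650.4 in MASC lines (1.14, SE 0.11), and the ratio did not pass (0.28, exact permutation p = 0.0667). Rpl7l1, a nucleolar relative of Rpl7, also was higher in MASC lines (0.70, SE 0.17), as was Rpl7 (1.06, SE 0.16), with a ratio that did not pass (-0.37, exact permutation p = 0.238). Rpl22 had 118, 99.8, 115 and 59.8 FPKM in SSC lines and 159.7 to 201 in MASC lines (0.93, SE 0.18). Rpl22l1, known to be held down by Rpl22, had 179, 229, 128 and 316 FPKM in SSC lines and 74.2 to 288 in MASC lines (-0.25, SE 0.45). Rpl22l1 exceeded Rpl22 in all 4 SSC lines and in 4 of 6 MASC lines. The ratio of the 2 did not pass (-1.17, exact permutation p = 0.0667).

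ESC lines stood against the same SSC lines as the MASC lines did, so the 2 comparisons share their controls. Of the 85 genes, 36 were higher in ESC lines and 0 lower (limma, Benjamini-Hochberg), against 7.67% higher and 13.8% lower among all transcripts. Among other transcripts at 1 FPKM or more in every sample, 13.2% were higher and 20.4% lower. Of the 85, 50 had an unadjusted p under 0.05. With a log2 difference of at least 1, 20 were higher and 0 lower, against 4.96% and 8.75%. The median difference was 0.75, and the groups did not overlap for 52 genes, with only 2 ESC lines and no share of all transcripts computed. Rps24 (3.48, SE 0.30), Rps4x (2.89, SE 0.16), Rpl10 (2.15, SE 0.18), Rpl39 (1.85, SE 0.26) and Rps27l (1.79, SE 0.24) had differences beside those from MASC lines of 3.51, 2.66, 1.95, 1.72 and 1.76. After quantile normalization 12 were higher and 7 lower, with no share of all transcripts computed on that scale.

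Between ESC and MASC lines no ribosomal protein gene was called in either direction by limma, and 0 of the 85 had an unadjusted p under 0.05. With quantile normalization, and with a trend and robust estimation in limma, the counts were 0 as well. Few transcripts of any kind were called, 0.0276% higher and 0.00306% lower, and with a log2 difference of at least 1 0.0153% and 0.00306%. The median difference was 0.03, with a range from -0.22 to 2.05, the latter for Rpl39l (24.5 and 58.4 FPKM in the 2 ESC lines). With 2 ESC lines, these counts do not show that the cell types were alike.

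HSC cultures had lower levels of several ribosomal protein genes than MASC lines. By limma with Benjamini-Hochberg adjustment, 17 of the 85 were lower and 0 higher, against 16.8% lower and 14.8% higher among all transcripts, with 27 at an unadjusted p under 0.05. With a log2 difference of at least 1, 4 were lower and 0 higher, against 11.2% and 9.64%. The median was -0.35, close to that of other transcripts at 1 FPKM or more in every sample (-0.21), and the share called lower (20.0%) was near that among all transcripts and below the 29.8% of those other transcripts. The count depended on HSC.2 and on the processing: 4 genes were lower without HSC.2 and 25 without HSC.1, 42 after quantile normalization, 29 with the correction for length and 6 with strain as covariate. Both HSC cultures are C57Bl/6J and no MASC line is, so the strain covariate rests on SSC.3, the only other C57Bl/6J sample. In that setting the median difference was -0.85, and 33 genes had an unadjusted p under 0.05. HSC.2 had more fibroblast markers (436 FPKM) than HSC.1 (2.21).

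The genes called lower with the largest differences were Rpl26, Rpl30 and Rps19bp1 among those with no paralog pair. Rpl26, which fosters translation of p53 mRNA, had 140.1 and 0.000281 FPKM in the 2 HSC cultures and 128 to 272 in MASC lines, so that its difference of -4.05 (SE 1.26) comes from 1 culture. Rpl30 had 33.5 and 7.74 FPKM against 53.8 to 79.7 in MASC lines (-2.04, SE 0.51). Rps19bp1, an activator of the deacetylase Sirt1 that binds Rps19, had 35.2 and 23.4 FPKM against 48.0 to 59.1 (-0.87, SE 0.17), and its levels of 33.1, 21.5, 20.7 and 22.6 in SSC lines were likewise below the MASC lines (1.12, SE 0.13). Rps27l (-1.33, SE 0.27) and Rpl7l1 (-1.08, SE 0.20) were lower in HSC cultures among the paralogs. Of the core genes with a tight spread, Rpl4 had 1008 and 990.4 FPKM against 1726 to 1912 (-0.86, SE 0.11). None of the X-linked 4 was called: their median was -0.09.

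Reads that mapped to more than 1 place had been excluded, and ribosomal protein genes have many processed copies in the genome. Of the 85 genes, 82 matched a transcript of the mm9 annotation. In the 74 core genes among them, a median of 96.8% of the 32-base stretches of the coding sequence were found elsewhere in mm9, and 50 genes were at 90% or above. Across these genes, which share libraries and are not replicates, this share had a Spearman correlation of -0.09 with mean FPKM and of 0.18 with the MASC minus SSC difference. Levels are those of uniquely placed reads. The Rpl34 transcript had 8.03 to 223 FPKM over the 17 samples, while a transcript named Rpl34-ps1 inside the same locus (chr3:130429755-130433247) had 1257 to 2346, and reads of the 2 may have been divided between them. The part of read placement in single levels was not tested.

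The genes around the ribosome moved as follows between MASC and SSC lines, by the same limma fit. Of 4 core ribosomal protein genes that the naming rule misses, Fau (0.69, SE 0.15) and Gnb2l1 (1.01, SE 0.20) were higher and the other 2 did not pass, with a median of 0.62. Of 14 genes of RNA polymerase I, which transcribes ribosomal RNA, 5 were higher and 0 lower, with a median of 0.38, against 11.4% higher among all transcripts and 20.0% among those at 1 FPKM or more in every sample. Taf1a, listed at 0 in every sample, could not be called. The 5 included the initiation factor Rrn3 (0.97, SE 0.10), Znrd1 (0.73, SE 0.12) and Twistnb (0.71, SE 0.22).

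Of 50 ribosome assembly factors, 30 were higher and 4 lower, with a median of 0.70. Among other transcripts at 1 FPKM or more in every sample, 20.0% were higher and 27.0% lower. The list counts between MASC and SSC lines were not computed on other scales. The largest were Naf1 (1.65, SE 0.26) and Nhp2 (1.54, SE 0.17) of the box H/ACA particles that make pseudouridine, and Tcof1 (1.44, SE 0.17), the treacle protein of the nucleolus. Mdn1, the ATPase that strips assembly factors from the large subunit, fell by 1.51 (SE 0.17), Pdcd11 by 0.55 (SE 0.14) and Rrp12 by 0.52 (SE 0.12). Of 15 other genes listed for a terminal oligopyrimidine tract, most of them of translation, 11 were higher and 0 lower, with a median of 0.78. Ybx1 (1.76, SE 0.07), Eif3e (1.44, SE 0.21) and Tpt1 (1.35, SE 0.14) led them. The tract was taken from the list and not checked at their start sites. Of 13 S6 kinases and regulators of such mRNAs, 4 were higher and 3 lower, with a median of 0.09, counts near those shares for so few genes. The translational repressor Eif4ebp1 was higher (2.29, SE 0.25), with 44.9 to 90.8 FPKM in SSC lines and 258 to 484 in MASC lines, as were Rps6ka1 (1.31, SE 0.17) and Rps6kb1 (0.79, SE 0.19). The kinase Mtor was lower (-1.26, SE 0.16), with 20.9 to 34.0 FPKM in SSC lines and 9.46 to 12.4 in MASC lines. Rps6ka3 (-1.002, SE 0.16) and Tsc1 (-0.89, SE 0.19) were lower as well. Lengths of the listed transcripts, Mdn1 and Mtor included, were not taken into account. Among transcripts over 6000 bases at 1 FPKM or more in every sample, the median was -0.40 and 44.2% were lower.

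Between HSC cultures and MASC lines, by the same test, 10 of 14 genes of RNA polymerase I (median -0.90) were lower. So were 43 of 50 assembly factors (median -1.38) and 11 of 15 genes listed for the tract (median -0.79). In each of these lists 0 were higher. Among all transcripts 16.8% were lower, and 29.8% among those at 1 FPKM or more in every sample. Of the S6 kinases and regulators, 6 were lower and 2 higher, and of the 4 missed core genes none was called. These list counts were not computed without single HSC cultures or on other scales.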

How the data were processed

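RNA-seq of total RNA (TruSeq libraries) was analysed for 17 samples, grouped by the cell type in the labels. Per the labels and methods, the authors aligned reads to mm9 with TopHat2 2.0.11, left out multi-mapping reads and deposited FPKM per RefSeq transcript from Cufflinks, with upper-quartile and GC normalization, and a coverage column giving reads per base. Read length is not given in the sources used here. FPKM were analysed as log2(FPKM + 1) with limma 3.58.1 in R 4.3.3, over all 32661 transcripts (601 rows of further loci left out), with Benjamini-Hochberg adjustment, and SSC, MASC and ESC lines in 1 fit and all 17 samples in that of HSC minus MASC. A log2 difference of 2 with an unadjusted p, 1 reading of the rule in the study's methods, was an alternative. The fit was tested on simulated data. Ratios and shares had two-sided exact permutation tests (scipy 1.17.1, Python 3.11.15). Sequences come from RefSeq (GRCm38.p6) and mm9.

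The genes, lists and tests were chosen with earlier results of these data known. Genes were named by a rule: paralogs with their partners, the 5 called genes with the largest MASC minus SSC difference outside those pairs and the 3 with the largest HSC minus MASC difference in each direction, the 3 lowest and the 3 highest in mean FPKM, X-linked genes, genes whose most abundant transcript differed between cell types, and the largest of each list. Rpl4, Rpl34, Rplp0, Rplp2, Rps2, Rps28 and the genes named after quantile normalization were chosen after their values were seen. Some genes are not reported here by name. Alternatives covered pseudocount, a filter of 1 FPKM in 2 samples, scaling, strain, replicate block, transcript choice and left-out lines.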

Additional observations from a re-analysis of the deposited data

Results flagged for a closer look

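Of 54 groups of 4 or 6 lines in which the most distant value was tested by Dixon's rule, 4 held a value far from the others, and chance alone gives about 1 in 20. Rps27 stood at 5.06 in log2(FPKM + 1) in SSC.2 and at 5.13 in MASC.4, while the other SSC lines ran from 0.12 to 0.32 and the other MASC lines from 0.12 to 0.32. Rps27rt, listed at the same locus, was at 1679 FPKM in SSC.2, the highest of the SSC lines, and at 2570 FPKM in MASC.4. Rpl30 was low in MASC.2, at 5.78 against 6.18 to 6.33 in the other MASC lines. The mean of the X-linked core genes minus the median of the autosomal core genes was -0.57 in SSC.2, against -1.18 to -1.08 in the other SSC lines, where both Rpl39 (836 FPKM) and the low autosomal median (750.5 FPKM) of that line enter.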

How the results depend on the processing

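Leaving out each line in turn kept the count of genes higher in MASC than in SSC lines between 43 and 57, and 0 were lower. With quantile normalization 18 were higher and 11 lower in that comparison, 12 and 7 in ESC minus SSC, and 42 were lower in HSC minus MASC. With a log2 difference of at least 1, 18, 20 and 4 genes passed (HSC minus MASC counted as lower), and 2, 3 and 2 with a log2 difference of at least 2 and an unadjusted p. The correction for length gave 50 higher and 1 lower gene in MASC minus SSC and 29 lower ones in HSC minus MASC. In ESC minus SSC it gave 1 lower gene, while 34 autosomal and 4 X-linked core genes were higher. With strain as covariate, 67 were higher and 1 lower in MASC minus SSC and 6 in HSC minus MASC. In the latter, strain rests on SSC.3, the only C57Bl/6J sample besides the HSC cultures. Without SSC.2 and SSC.4, 2 genes were lower in MASC minus SSC, while 29 autosomal and 3 X-linked core genes were higher. In ESC minus SSC 1 gene was lower in that setting, while 28 autosomal and 3 X-linked core genes were higher. Leaving out single lines gave 20 to 47 higher genes in ESC minus SSC (20 without ESC.1, 47 without SSC.1) and 4 to 25 lower ones in HSC minus MASC.

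Replicate numbers did not pair the lines, as deviations of same-numbered lines correlated between -0.355 and 0.414. With the replicate number as a block, 37 genes were higher in MASC minus SSC, 15 in ESC minus SSC and 14 lower in HSC minus MASC.

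Rpl10l was -3.07 without SSC.2 and SSC.4 (limma, adjusted p = 0.00127) and Rpl39l was 3.21 without SSC.1, SSC.3, MASC.1 and ESC.1 (limma, adjusted p = 0.0149). Rps2, 0.47 and higher as deposited, was -0.17 after quantile normalization and did not pass. The ratio of Rpl3l to Rpl3 was -0.42 with a pseudocount of 0.1, and that of Rps27l to Rps27 and Rps27rt together 0.89. The Rps24 share differed by 53.6 points without SSC.2 and SSC.4 (exact permutation p = 0.0714, the smallest that 2 against 6 lines allow). Leaving out single lines moved the ratio of Rpl22l1 from -1.48 (without SSC.3, exact p = 0.0238) to -0.74, of Rpl36al from 0.20 to 0.34 (without MASC.2, exact p = 0.0159), and of Rps27l to Rps27 alone, which is under 1 FPKM in 13 samples, from 1.16 to 2.97 (without MASC.4, exact p = 0.0159). Of the other values of single genes, 595 kept their side of the threshold, 24 lost the call and 8 gained it. Some of the 595 changed sign without being called, such as Rpl10l, from -0.98 to 1.37 with single lines left out. The causes were not tested. The length correction and the joint left-out lines were chosen after seeing the data. Since no read counts were at hand, no count model was run and no counting interval is given.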

Other observations

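Symbols ending in -ps, left out by the rule, included rows of substantial level. Rpl34-ps1, whose 413-base transcript lies inside the Rpl34 locus, had 1257 to 2346 FPKM over the 17 samples. Rpl14-ps1 ran from 182 to 575 FPKM and was higher in MASC than in SSC lines (log2 difference 0.82, limma adjusted p = 0.0106), as was Rps19-ps3 at 77.3 to 228 FPKM (0.59, limma adjusted p = 0.00367). Rpl31-ps12 ran from 171 to 589.7 FPKM, Rplp2-ps1 from 80.7 to 279, Rps15a-ps4 from 58.5 to 131 and Rps15a-ps6 from 82.6 to 189.

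Several of the shortest and most abundant genes shared a pattern over libraries that crossed the groups. Rplp1, Rpl41 and Rps28 were higher in SSC.1 and SSC.3 than in SSC.2 and SSC.4, and higher in MASC.1 and MASC.2 than in the other 4 MASC lines. In Rps28 this gave 4523 and 5226 FPKM in MASC.1 and MASC.2, 2362 to 2845 in the other MASC lines, and 3544 and 2562 in ESC.1 and ESC.2. MASC.1, MASC.2 and ESC.1 are the Oct4-GFP lines of their groups, SSC.1 is Oct4-GFP as is SSC.2, and SSC.3 is C57Bl/6J. The labels name no batch for these libraries.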
